A study of Mus musculus with 9 samples.

Results

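A set of 10 listed mRNAs that mark reactive astrocytes (10 of the 22092 genes in the count files) were followed from whole astrocytes to the perivascular endfeet that astrocytes wrap around brain vessels. They are Lcn2, Serpina3n, Steap4, Cd44, Osmr, S1pr3, Cxcl10, Gbp2, Emp1 and Tgm1, chosen by symbol, and each is represented by its Ensembl transcript with the highest CPM (counts scaled to the size of the library) summed over the libraries. All 10 had a row in the files. Every mouse was 2 months old and carried the transgene tg:Aldh1L1-L10aGFP (strain Aldh1L1 JD130), a bacterial artificial chromosome in which the Aldh1l1 promoter drives a ribosomal protein, L10a, fused to GFP. Translating ribosome affinity purification (TRAP) pulls down these tagged ribosomes with antibodies against GFP, and the mRNAs bound to them were amplified and sequenced. Whole astrocyte TRAP was made from 3 brains, 1 mouse per library, after removal of the choroid plexus, and endfeet TRAP from 6 preparations of purified brain vessels, each pooled from 8 mice. The labels give no injury or treatment in either group. The comparison asks which ribosome-bound mRNAs are relatively more or less abundant in the processes left attached to the vessels than in the astrocyte as a whole.

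Astrocytes respond to injury, infection and ischaemia by a change of state called reactivity. A core set of mRNAs, here called pan-reactive, increases in most forms of it. Other mRNAs are typical of astrocytes exposed to inflammation, such as Gbp2, or to ischaemia, such as Emp1 and Tgm1. Signals that drive the state include cytokines of the interleukin-6 family, which act through receptors that share the subunit gp130 and activate the transcription factor STAT3, and interferons. Several of the 10 genes are also active outside astrocytes, in vessel cells and in blood leukocytes, which purified vessels can bring with them.

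The mRNA levels of 8 of the 10 genes were higher in endfeet TRAP than in whole astrocyte TRAP, against 20.7% of the 14427 genes tested, and none was lower, against 13.9% of all genes (edgeR's quasi-likelihood test, Benjamini-Hochberg adjusted p at or below 0.05). No member was lower at an unadjusted p under 0.05, by DESeq2 or by limma voom either (0 each). The 8 were Lcn2, Serpina3n, Steap4, Cd44, Osmr, S1pr3, Gbp2 and Emp1. Cxcl10 did not pass the threshold, and Tgm1 had too few counts to be tested across all genes. Fitted changes of the 8 ran from 7.02-fold for Serpina3n to 385-fold for Lcn2. Over the 9 genes tested the median log2 fold change was 4.90, and over all 14427 genes it was 0.10. In 7 of the 10 genes every endfeet library lay above every whole astrocyte library, a separation seen in 18.9% of all genes tested. Levels below are CPM scaled with the trimmed mean of M values (TMM) and are called normalised CPM. Summed over the 10 genes, they came to 33.4 ± 2.77 (SD, n = 3) in whole astrocytes and 676 ± 78.4 (SD, n = 6) in endfeet. The sum was therefore far steadier between endfeet libraries than most of its parts.

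**Figure D1:**
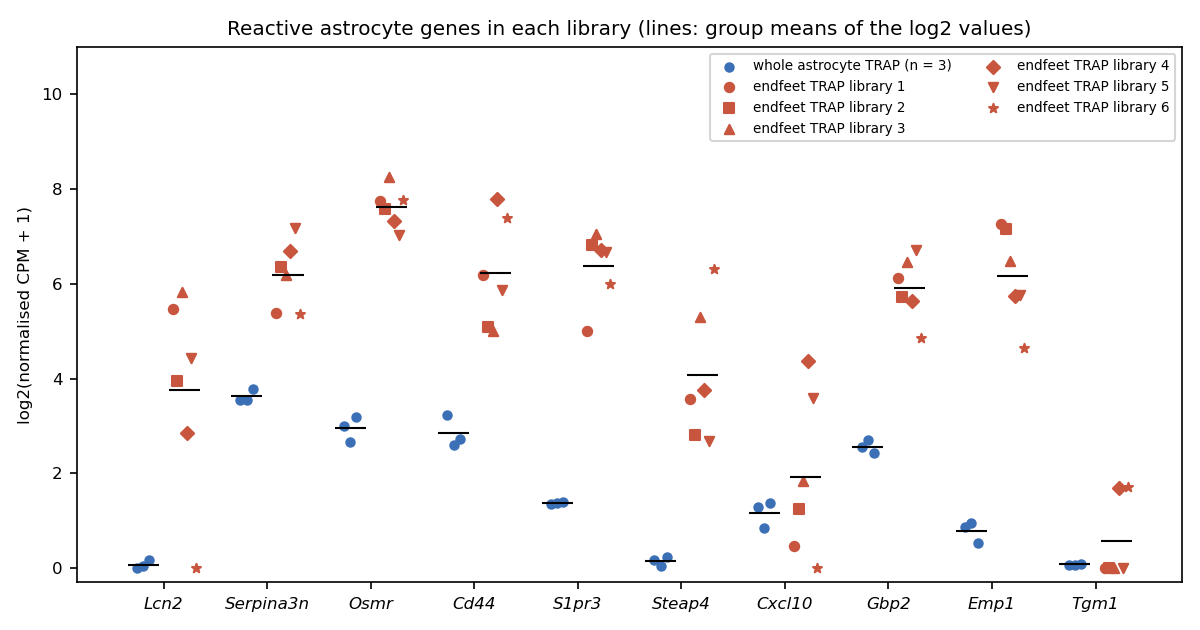
Level of each of the 10 genes in every library, as log2(normalised CPM + 1) on the vertical axis, with blue points for the 3 whole astrocyte TRAP libraries, red symbols for the 6 endfeet TRAP libraries (1 symbol per library) and a black line at each group's mean. Endfeet points of 7 genes sit wholly above the whole astrocyte points, and those of Lcn2, Cxcl10 and Tgm1 reach down to 0 counts.

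Depth and purity differed between the groups. Whole astrocyte libraries held 35984144 to 43521208 counts over all genes and endfeet libraries 2319495 to 13450588, with the fewest in endfeet library 6, where 3 counts are worth 1.37 normalised CPM. Replicates were close in whole astrocytes (common dispersion 0.0142) and far apart in endfeet (0.725). The markers of vessel cells came along with the endfeet. All 12 endothelial markers were higher in endfeet, and their summed level went from 6.96 to 7.73 normalised CPM in whole astrocytes to 3375 to 5302 in endfeet. All 12 mural cell markers were higher too, with sums of 43.5 to 50.7 and 4161 to 8756 normalised CPM. Of the 8 fibroblast markers 7 were higher and 1 was not tested, with sums of 20.3 to 35.8 and 347 to 1399. Of the 10 microglia and macrophage markers 7 were higher, none lower, with sums of 21.5 to 25.8 and 234 to 385. Of the 10 neutrophil markers 5 were higher, with sums of 0.93 to 1.80 and 43.9 to 282, and Ly6g, Camp and Retnlg were at 0 in every library. The choroid plexus list was led by Ttr, the transthyretin mRNA of that epithelium, and reached 6890 to 90381 normalised CPM in endfeet, the highest in endfeet library 1. In whole astrocyte libraries 1 to 3 it summed to 74.2, 1536 and 1260 normalised CPM. Of 9 mRNAs encoded in mitochondria 6 were higher and 3 were not tested, with sums of 26.3 to 51.4 and 3990 to 8041. How much of the RNA in endfeet TRAP was not bound to tagged ribosomes was not tested. The 12 astrocyte markers summed to 39859 to 41341 normalised CPM in whole astrocytes and 12527 to 33831 in endfeet, with 1 of them higher and 6 lower. The sums of the other lists in this paragraph moved in the direction of the 8 genes above, and that of the astrocyte markers did not. The part of any of these lists in the results of the 8 genes was not tested. Fewer cells of a type and less RNA per cell cannot be told apart in such samples.

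**Figure D2:**
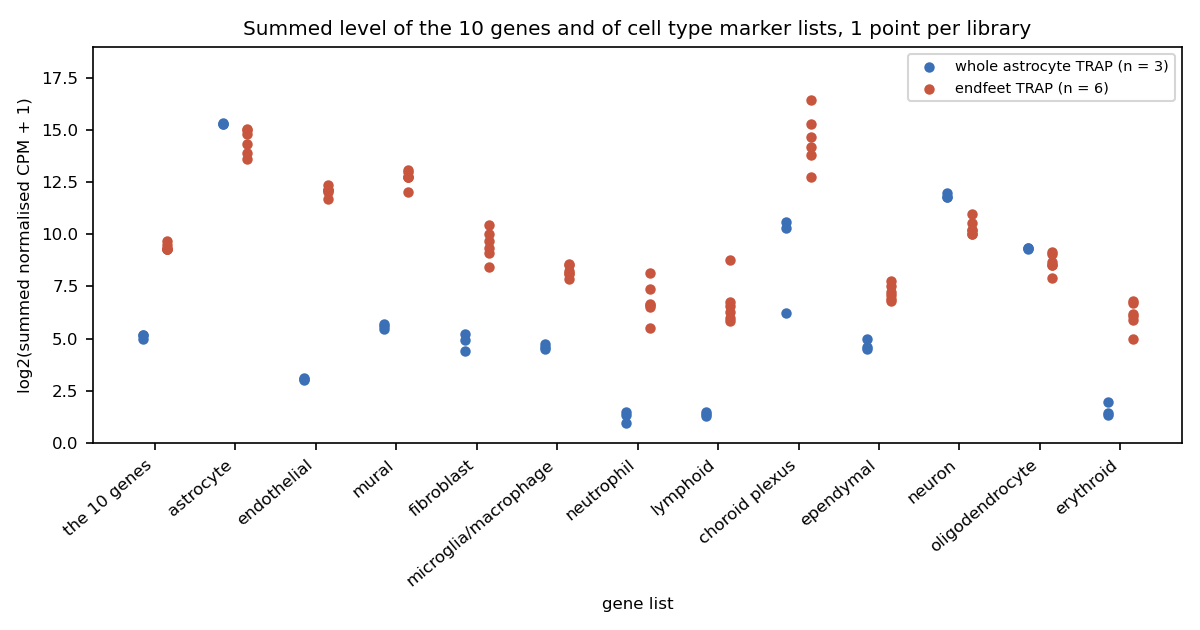
Summed normalised CPM of the 10 genes and of 12 lists of cell type markers, as log2(sum + 1) on the vertical axis, 1 point per library (blue, whole astrocyte TRAP, n = 3; red, endfeet TRAP, n = 6). Endothelial sums rise from at most 7.73 to at least 3375 normalised CPM, in the same direction as those of the 10 genes, while astrocyte and neuron sums lie lower in endfeet.

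Lcn2 (chr2:32384633-32388252 in mm10, minus strand, 6 exons) encodes lipocalin 2, a secreted protein that binds iron-carrying siderophores and is among the sharpest markers of reactive astrocytes. Whole astrocyte libraries held 0, 1 and 6 counts of it. The 6 endfeet libraries, in order, held 232, 126, 849, 78, 281 and 0 counts, or 43.5, 14.5, 55.8, 6.28, 20.7 and 0 normalised CPM. Thus 5 of the 6 endfeet libraries lay above all whole astrocyte libraries, while endfeet library 6 had none, which at its depth allows up to 1.37 normalised CPM. The log2 fold change was 8.59 ± 1.76 (SE, adjusted p = 0.0022). It was 10.13 without whole astrocyte library 3, which held most of the few counts of its group. Lcn2 is also abundant in neutrophils. S100a8 and S100a9, the calprotectin mRNAs of these leukocytes, summed to 35.8, 10.9, 11.9, 6.76, 0 and 0 normalised CPM in endfeet libraries 1 to 6. The whole list of 10 neutrophil markers summed to 95.9, 91.9, 101, 166, 43.9 and 282 normalised CPM in the same libraries. Markers at 0 numbered 3, 4, 4, 5, 8 and 8 of the 10 in endfeet libraries 1 to 6. The sum was thus highest in endfeet library 6, where Lcn2 was at 0, but 8 of the 10 markers were at 0 there too. The part of neutrophils in the Lcn2 result was not tested.

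Serpina3n (chr12:104406729-104414329, plus strand, 5 exons) encodes an extracellular inhibitor of serine proteases that increases in astrocytes in nearly every injury model. Its levels were 10.8, 10.7 and 12.7 normalised CPM in whole astrocytes and 41.1, 81.0, 71.9, 102, 143 and 40.2 in endfeet libraries 1 to 6. It was the one with the smallest change among those that passed (log2 fold change 2.81 ± 0.50, SE, adjusted p = 0.00078). The lowest endfeet library was still above the highest whole astrocyte library. Serpina3n lies in a cluster of closely related genes, and because reads that aligned more than once were discarded, its counts may be too low.

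Cxcl10 (chr5:92346638-92348889, minus strand, 4 exons) encodes a chemokine induced by interferon that attracts T cells carrying the receptor CXCR3. Its levels were 1.46, 0.79 and 1.60 normalised CPM in whole astrocytes and 0.38, 1.38, 2.56, 19.6, 11.1 and 0 in endfeet. Endfeet libraries 4 and 5 stood above the whole astrocytes and endfeet library 3 slightly so, whereas the other 3 overlapped them or lay below. The log2 fold change of 2.20 ± 1.40 (SE, adjusted p = 0.25) was not distinguishable from 0 at this spread, and it was 1.15 without endfeet library 4 (adjusted p = 0.51).

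Osmr (chr15:6813577-6874969, minus strand, 18 exons), the specific subunit of the oncostatin M receptor, was the most consistent of the surface proteins. It measured 7.0, 5.37 and 8.08 normalised CPM in whole astrocytes and 215, 190, 306, 160, 130 and 218 in endfeet. The groups were far apart, and the highest endfeet library was only 1.51 times the median of the 6. The log2 fold change was 4.90 ± 0.40 (SE, adjusted p = 1.5e-06).

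S1pr3 (chr13:51408639-51422797, plus strand, 2 exons), a receptor for the lipid mediator sphingosine 1-phosphate, had 1.54, 1.61 and 1.62 normalised CPM in whole astrocytes. Its endfeet levels were 31.1, 112, 131, 105, 102 and 62.6. Endfeet library 1 was the low one, yet all 6 exceeded whole astrocytes (log2 fold change 5.82 ± 0.58, SE, adjusted p = 8.2e-06).

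Cd44 (chr2:102811141-102901665, minus strand, 19 exons) encodes the receptor for hyaluronan and osteopontin. Whole astrocytes had 8.35, 5.08 and 5.66 normalised CPM and endfeet 71.5, 33.2, 31.3, 221, 57.4 and 168. Endfeet libraries 4 and 6 stood above the other endfeet libraries, and all 6 above whole astrocytes. The log2 fold change was 3.93 ± 0.74 (SE, adjusted p = 0.0012), and it was 2.98 when these 2 libraries were both left out (adjusted p = 0.00099), a choice made after the values were seen.

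Steap4 (chr5:7960457-7982213, plus strand, 5 exons) encodes a membrane metalloreductase that reduces iron and copper. It was near the limit of detection in whole astrocytes, with 5, 1 and 8 counts or 0.14, 0.026 and 0.18 normalised CPM. Endfeet libraries 1 to 6 had 10.9, 5.98, 38.6, 12.6, 5.45 and 78.1 normalised CPM. All 6 were above whole astrocytes, with endfeet libraries 3 and 6 the high ones. The log2 fold change was 7.71 ± 1.35 (SE, adjusted p = 0.0007) and 6.96 without endfeet library 6.

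Emp1 (chr6:135362545-135383173, plus strand, 5 exons), a membrane protein with 4 passes related to the myelin protein PMP22, is one of the mRNAs typical of ischaemia. Its levels were 0.84, 0.93 and 0.44 normalised CPM in whole astrocytes and 152, 141, 88.5, 52.3, 53.4 and 24.2 in endfeet. No library of one group came near the other, and the log2 fold change was 6.85 ± 0.77 (SE, adjusted p = 2.4e-05). Endfeet libraries 1, 2 and 3 were the 3 highest. By the numbers the libraries carry they form a series apart from endfeet libraries 4 to 6 and all whole astrocyte libraries, for a reason that is not stated. Within the latter series alone, which holds both groups, the log2 fold change of Emp1 was 5.75 (adjusted p = 0.00053). There, 7 of the 8 members that could be tested were higher, with log2 fold changes of 2.93 to 7.94, Cxcl10 was not (2.89, adjusted p = 0.12), and Lcn2 did not have enough counts to be tested. With the series as a covariate 8 of 9 were higher, with log2 fold changes of 3.07 to 8.05. The series of endfeet libraries 1 to 3 holds no whole astrocyte library and gives no value of its own.

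Gbp2 (chr3:142620602-142638008, plus strand, 11 exons) encodes an interferon-induced GTPase, the mRNA by which astrocytes exposed to inflammation are often recognised. Whole astrocytes had 4.89, 5.56 and 4.39 normalised CPM and endfeet 69.0, 51.7, 86.8, 48.5, 105 and 27.9. All endfeet libraries were higher, endfeet library 6 the least, and the log2 fold change was 3.71 ± 0.53 (SE, adjusted p = 0.00014). Guanylate-binding proteins are similar in sequence, so counts of Gbp2 and of its relatives are uncertain where discarded reads could have come from several of them.

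Tgm1 (chr14:55700009-55713926, minus strand, 15 exons) encodes a transglutaminase that crosslinks proteins and is best known from the cornified envelope of the skin. It had 2, 2 and 3 counts in whole astrocytes and 0, 0, 0, 28, 0 and 5 counts in endfeet. Only endfeet libraries 4 and 6 held any, at 2.25 and 2.28 normalised CPM, and the other 4 overlapped the whole astrocyte range within what their depth can show. Means of log2(normalised CPM + 1) differed by 0.49, and a two-sided exact permutation test over the libraries (84 arrangements) gave p = 0.5.

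Endfeet libraries did not rank in the same order for all genes. Endfeet library 6 was the lowest for 5 of the 10 genes and the highest for 2, Steap4 and Tgm1. Endfeet library 3 was highest for Lcn2, Osmr and S1pr3, endfeet library 4 for Cd44 and Cxcl10, endfeet library 5 for Serpina3n and Gbp2, and endfeet library 1 for Emp1. The coefficient of variation over the 6 endfeet libraries ran from 0.297 for Osmr to 1.55 for Tgm1. Its median over the 10 genes was 0.71, beside 0.64 over all genes tested.

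**Figure D3:**
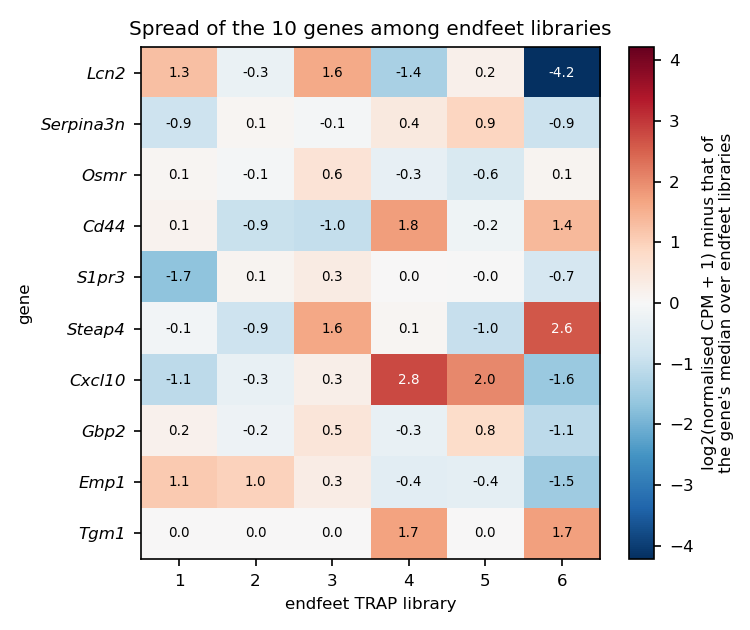
Level of each of the 10 genes (rows) in each endfeet TRAP library (columns), as the difference of log2(normalised CPM + 1) from that of the gene's median over the 6 libraries, with red above and blue below it. Lcn2 in library 6 is the deepest blue (no count), Cxcl10 in library 4 and Steap4 in library 6 are the strongest reds, and the row of Osmr is the palest among the genes that passed the test.

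Levels can be set side by side between genes only per length of transcript. In normalised CPM per kb the order in whole astrocytes was Serpina3n (5.52 ± 0.56, SD, n = 3), Gbp2 (1.97 ± 0.23), Osmr (1.24 ± 0.25), Cxcl10 (1.17 ± 0.39), Cd44 (1.13 ± 0.31), S1pr3 (0.36 ± 0.010), Emp1 (0.27 ± 0.095), Lcn2 (0.058 ± 0.076), Steap4 (0.036 ± 0.024) and Tgm1 (0.021 ± 0.0026). Serpina3n ranked 7524th of 22092 genes on this scale and Gbp2, the next, 10229th. Osmr, Cxcl10 and Cd44 differed by less than their SDs, so their order in whole astrocytes is loose. Cd44 was divided by the 5614 bases of its longest transcript, whose alternative exons held almost no reads, which lowers its value in both groups. In endfeet the order was Serpina3n (38.7 ± 19, SD, n = 6), Osmr (37.0 ± 11), Emp1 (31.3 ± 19), Gbp2 (25.7 ± 11.1), Lcn2 (25.6 ± 23.9), S1pr3 (20.3 ± 8.23), Cd44 (17.3 ± 14.0), Steap4 (8.01 ± 9.08), Cxcl10 (5.33 ± 7.22) and Tgm1 (0.27 ± 0.42). Every pair of neighbours in the endfeet order overlapped in range, so the order is loose. Serpina3n then ranked 1455th and Osmr 1539th of all genes.

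Transcripts of 3 of the genes show where along the mRNA the reads lay, because a read is counted on every transcript that it overlaps. The longest Cd44 transcript and one without 5 of its alternative coding exons had counts that differed by at most 1 in every library. A shorter transcript exceeded one that lacks 5 of its alternative exons, 4 of them not among the first 5, by at most 4 counts, as in 610 against 614 in endfeet library 5. These alternative exons, which distinguish variant forms of CD44 from the standard form, were thus almost without reads in both groups. Bowtie does not align reads across exon junctions, which lowers the counts of short exons. The long end of the Cd44 3′ untranslated region (UTR) was not. It reaches 1389 bases beyond that of the shorter transcript (chr2:102811141-102812529), and together with 1 coding exon of 117 bases and 170 bases at the 5′ end it is what the shorter transcript lacks. In whole astrocytes 19.8 to 35.9% of Cd44 counts lay outside the shorter transcript. In endfeet libraries 1, 2, 3 and 5 it was 10.2 to 21.1%, but 69.7% in endfeet library 4 (1917 of 2751 counts) and 57.8% in endfeet library 6 (212 of 367), the same libraries in which Cd44 was highest. Counted on the shorter transcript, Cd44 measured 4.63 ± 0.67 (SD, n = 3) and 50.4 ± 19.7 (SD, n = 6) normalised CPM (log2 fold change 3.44 ± 0.53, SE, adjusted p = 0.00028).

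Osmr has a corresponding pair of transcripts, in which the longer 3′ UTR adds 1460 bases (chr15:6813577-6815036). Counts outside the shorter transcript made up 41.4 to 49.0% in whole astrocytes and 32.3 to 79.3% in endfeet, with endfeet library 6 the highest. On the shorter transcript the log2 fold change was 4.59 ± 0.50 (SE, adjusted p = 1.9e-05). For Cxcl10 the comparison was with a transcript of 1353 bases, longer than the 1094 bases of the one used above because it keeps an intron, but with a 3′ end that stops 167 bases earlier. These 167 bases (chr5:92346638-92346804) are all that it lacks. All 244 counts of endfeet library 4 and 120 of the 150 in endfeet library 5 fell in them, beside 41 of 54, 20 of 30 and 56 of 73 in whole astrocytes. Counted on the other transcript, Cxcl10 had 13, 10 and 17 counts in whole astrocytes, 7 in endfeet library 3, 30 in endfeet library 5 and 0 in the other 4. A transcript of Art3 on the opposite strand covers 133 of the 167 bases. It had 43 counts in endfeet library 4, and whether the counting used strand is not stated, so reads of the pair could not be told apart with certainty. The transcript structures are those of GENCODE M21, whereas the counts were made on Ensembl 75.

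**Figure D4:**
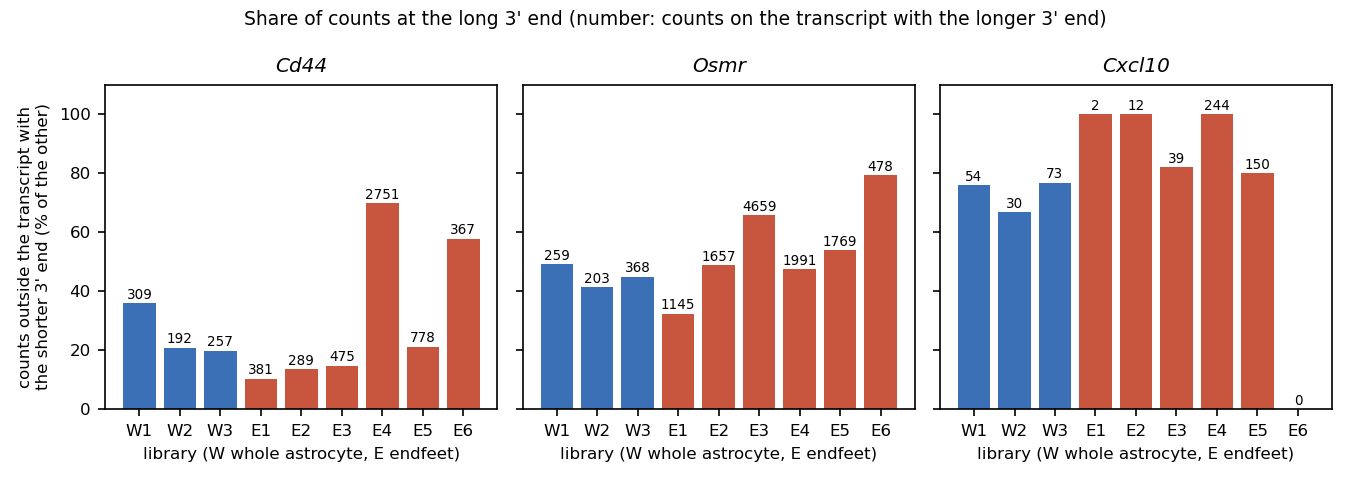
Percent of the counts on the transcript with the longer 3′ end that fell outside the transcript with the shorter 3′ end, for Cd44, Osmr and Cxcl10, 1 bar per library (W, whole astrocyte TRAP, blue; E, endfeet TRAP, red), with the count on the former transcript above each bar. For Cd44, endfeet libraries 4 and 6 stand out at 69.7% and 57.8%, and for Cxcl10 endfeet library 6 has no count and so no bar.

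Promoters were searched for the motifs of STAT factors and of interferon-regulated genes, since the 10 genes are taken as targets of such signals. The motif of a further transcription factor, NF-kB, was searched as well. The windows are the 250 bases before the RefSeq start of each gene (build GRCm38.p6), 12 windows for the 10 genes, of 32851 windows in all. TTCNNNGAA, the GAS motif of STAT factors, was found on either strand in 3 of the 12 windows, belonging to Steap4, Emp1 and Tgm1, and in 7.02% of all windows. GAAANNGAAA, the ISRE motif of interferon-regulated genes, was found in 3 (Cxcl10, Gbp2 and Tgm1) and in 2.98% of all. The NF-kB motif was found in 2 (Cxcl10 and Steap4) and in 7.25% of all. Lcn2, Serpina3n, Osmr, Cd44 and S1pr3 held none of these letters in the window. The 4 windows below are shown because they carry the matches of members with an interferon or STAT motif that were counted in most endfeet libraries. They run from 5′ to 3′ on the strand of the gene, end at the base before the start, and have the matches in capitals.
Cxcl10: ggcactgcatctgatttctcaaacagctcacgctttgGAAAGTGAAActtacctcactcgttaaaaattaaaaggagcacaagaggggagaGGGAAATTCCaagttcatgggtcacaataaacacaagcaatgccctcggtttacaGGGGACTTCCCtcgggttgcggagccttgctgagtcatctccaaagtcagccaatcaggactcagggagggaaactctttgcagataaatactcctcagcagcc
Gbp2: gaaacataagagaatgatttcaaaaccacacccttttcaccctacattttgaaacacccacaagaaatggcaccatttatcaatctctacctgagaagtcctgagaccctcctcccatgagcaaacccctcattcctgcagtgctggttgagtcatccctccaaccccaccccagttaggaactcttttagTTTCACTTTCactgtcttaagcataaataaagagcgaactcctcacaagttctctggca
Steap4: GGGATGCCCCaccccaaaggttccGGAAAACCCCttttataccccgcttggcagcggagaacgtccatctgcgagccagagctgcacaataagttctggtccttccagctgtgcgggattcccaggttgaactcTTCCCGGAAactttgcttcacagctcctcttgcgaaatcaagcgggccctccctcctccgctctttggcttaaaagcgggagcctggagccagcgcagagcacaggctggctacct
Emp1: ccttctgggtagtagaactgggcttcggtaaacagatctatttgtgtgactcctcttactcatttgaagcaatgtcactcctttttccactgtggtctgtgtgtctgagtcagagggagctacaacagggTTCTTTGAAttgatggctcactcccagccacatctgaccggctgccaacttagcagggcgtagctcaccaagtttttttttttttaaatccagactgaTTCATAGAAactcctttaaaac
The Cxcl10 window (chr5:92348890-92349139, minus strand) has an ISRE match that begins 213 bases before the start and 3 NF-kB matches that begin 159, 104 and 103 bases before it, the last 2 overlapping. Gbp2 (chr3:142620413-142620662, plus strand) has an ISRE match on the opposite strand at 59 bases. Steap4 (chr5:7960222-7960471, plus strand) has a GAS match at 116 bases and NF-kB matches at 250 and 226 bases. Emp1 (chr6:135362681-135362930, plus strand) has GAS matches at 120 and 22 bases. Of these 4 genes, Gbp2, Steap4 and Emp1 were higher in endfeet and Cxcl10 was not past the threshold, while all 5 genes without a match were higher. A match of letters is a description and not a binding site.

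Genes that act with the receptors were read from the same test. Of 19 genes of the oncostatin M, gp130 and STAT3 pathway, Osmr among them, 15 were tested. In endfeet 7 were higher and none lower, beside 20.7% and 13.9% of all genes tested. The median log2 fold change was 1.89 beside 0.10 for all genes (0 lower at an unadjusted p under 0.05, 0 by DESeq2 and 3 by limma voom). Receptor subunits of the family were among those higher. Il6st, which encodes gp130, went from 61.5 ± 9.03 (SD, n = 3) to 1129.7 ± 201 (SD, n = 6) normalised CPM (log2 fold change 4.2 ± 0.30, SE, adjusted p = 5.4e-07). Lifr, the subunit for leukaemia inhibitory factor, rose by 2.65 ± 0.38 (adjusted p = 0.00014), and Il6ra, the interleukin-6 receptor, by 6.25 ± 0.81 (adjusted p = 6.9e-05). The ligand Osm had no count in any of the 9 libraries. Lif, another ligand, was at 6.07 ± 1.66 and 1.04 ± 1.36 normalised CPM (log2 fold change −2.47, adjusted p = 0.13). Stat3 itself was at 157 ± 2.94 and 156 ± 61.0 normalised CPM (log2 fold change −0.01 ± 0.31, adjusted p = 0.98). Socs3, the feedback inhibitor that STAT3 induces, was at 0.78, 0.85 and 1.01 in whole astrocytes and 1.69, 17.8, 4.47, 6.20, 8.26 and 63.5 in endfeet (log2 fold change 4.24 ± 1.22, adjusted p = 0.016). Its groups did not overlap, but without whole astrocyte library 1, 2 or 3 the adjusted p was 0.072, 0.072 or 0.066, and the change was 3.12 without endfeet library 6 (adjusted p = 0.019).

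Among 25 interferon genes, which include Gbp2 and Cxcl10, 23 were tested. Of these, 16 were higher in endfeet and none lower, beside 20.7% and 13.9% of all genes tested. The median log2 fold change was 2.32 (0 lower at an unadjusted p under 0.05, by DESeq2 and by limma voom). The largest changes were those of Rsad2, the antiviral protein viperin (5.36 ± 0.56, SE, adjusted p = 1.2e-05), Bst2, the antiviral protein tetherin (4.80 ± 0.63, adjusted p = 8.3e-05), and Iigp1, an interferon-induced GTPase (4.22 ± 0.88, adjusted p = 0.0024). Irf1, a transcription factor of the interferon response, rose by 2.23 ± 0.51 (adjusted p = 0.0044). Ifngr1, a subunit of the interferon gamma receptor, had a log2 fold change of 1.66 ± 0.64 (adjusted p = 0.061). Cxcr3, the receptor of Cxcl10, had 1 count in whole astrocytes and 31 in endfeet, 29 of them in endfeet library 2.

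Sphingosine 1-phosphate receptors differed in direction. Of 11 genes of this pathway, all tested and S1pr3 among them, 5 were higher and 2 lower, beside 20.7% and 13.9% of all genes tested. S1pr1, a receptor abundant in astrocytes, measured 899, 896 and 914 normalised CPM in whole astrocytes and 314, 420, 339, 323, 457 and 284 in endfeet, a decrease in every library (log2 fold change −1.34 ± 0.22, SE, adjusted p = 0.00047). This was opposite in direction to S1pr3. S1pr4, a receptor of leukocytes, was counted almost only in endfeet libraries 2, 3 and 5 (8.39, 11 and 10.03 normalised CPM; log2 fold change 7.02 ± 2.07, adjusted p = 0.019). S1pr4 was no longer past the threshold without whole astrocyte library 1, 2 or 3 (adjusted p = 0.084, 0.073 or 0.078). Spns2, the exporter of the lipid, rose by 3.18 ± 0.51 (adjusted p = 0.00037). Of the kinases that make it, Sphk1 was at 9.84 ± 2.29 and 13.4 ± 9.06 normalised CPM (log2 fold change 0.45, adjusted p = 0.63), and Sphk2 fell to 46.8 ± 17.2 from 107 ± 6.91 (log2 fold change −1.20 ± 0.36, adjusted p = 0.021). Sphk2 too was not past the threshold without whole astrocyte library 1, 2 or 3 (adjusted p = 0.076, 0.086 or 0.082).

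Partners of lipocalin 2 and CD44 were mostly higher. Of 8 listed genes 6 were tested, 5 were higher and none lower, beside 20.7% and 13.9% of all genes tested. None was lower at an unadjusted p under 0.05, with DESeq2 or with limma voom either (0 each). Slc22a17, the lipocalin 2 receptor, went from 55.7 ± 10.2 to 217 ± 133 normalised CPM (log2 fold change 1.96 ± 0.51, SE, adjusted p = 0.0094). Within the series of endfeet libraries 4 to 6 and the whole astrocyte libraries its change was 0.83 (adjusted p = 0.044). Lrp2, megalin, which also takes up lipocalin 2 and is abundant in choroid plexus epithelium, had 1 count in whole astrocytes and 1154 in endfeet, a ratio of 2418 with a 95% counting interval of 433 to 95597. Spp1, osteopontin, rose by 3.77 ± 0.51 (adjusted p = 9.7e-05), and Msn, moesin, which ties CD44 to actin, by 3.82 ± 0.30 (adjusted p = 1.3e-06).

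Wider lists of reactive genes hold these 10 among others. Their counts stand beside 20.7% higher and 13.9% lower among all genes tested. Of 13 pan-reactive genes, all tested, 9 were higher in endfeet and none lower, with a median log2 fold change of 3.93. Of these 9, Lcn2, Serpina3n, Steap4, Cd44, Osmr and S1pr3 were already counted above, and the median is the value of Cd44. Outside the 10 genes, Cp, Vim and Hspb1 were higher, while Timp1, Aspg and Gfap did not pass the threshold. Beside Lcn2 and Steap4 the largest change was that of Cp, ceruloplasmin, a copper-carrying ferroxidase, at 3.31 ± 1.17 and 392 ± 90.2 normalised CPM (6.88 ± 0.42, SE, adjusted p = 1.8e-07). The intermediate filament mRNAs parted. Vim, vimentin, had 127, 122 and 123 normalised CPM in whole astrocytes and 741, 655, 760, 561, 878 and 463 in endfeet (2.45 ± 0.28, adjusted p = 2.5e-05). Gfap, the classic marker of reactive astrocytes, was at 1279 ± 62.7 and 889 ± 423 normalised CPM, with overlapping groups (−0.53 ± 0.40, adjusted p = 0.33). Of 13 inflammation-type genes, all tested, 11 were higher and none lower, with a median of 4.22. C3, the central complement component, led them (7.02 ± 1.12, adjusted p = 0.00036), followed by Srgn, the proteoglycan serglycin of haematopoietic and endothelial cells (5.83 ± 0.47, adjusted p = 1.6e-06), and H2-D1, a class I histocompatibility mRNA whose relatives share reads (5.04 ± 0.57, adjusted p = 2.3e-05). Of 13 ischaemia-type genes 9 were tested, 4 were higher and none lower, with a median of 3.76. Ptx3, one of the 4 not tested, had 26, 26 and 34 counts in whole astrocytes and 0 in every endfeet library. With the untested genes included, every endfeet library lay above every whole astrocyte library for 3 genes of this list. For 2, Ptx3 and S100a10, every endfeet library lay below. Among those higher, after Emp1 came Tm4sf1, a membrane protein abundant in endothelium (6.48 ± 0.39, adjusted p = 1.8e-07), and Cd109, a surface antagonist of TGF-beta (4.35 ± 1.10, adjusted p = 0.0081). Endfeet library 6 held 2 counts of Cd109, or 0.91 normalised CPM, where 3 counts are worth 1.37. Whether it lay under the whole astrocytes (1.05 to 1.76) cannot be told at that depth. At an unadjusted p under 0.05, 0, 1 (Fkbp5) and 1 (S100a10) genes of the 3 lists were lower, by DESeq2 0, 0 and 1, and by limma voom 1, 1 and 2. The 3 lists differ in how many genes were tested, and differences between them were not tested.

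**Figure D5:**
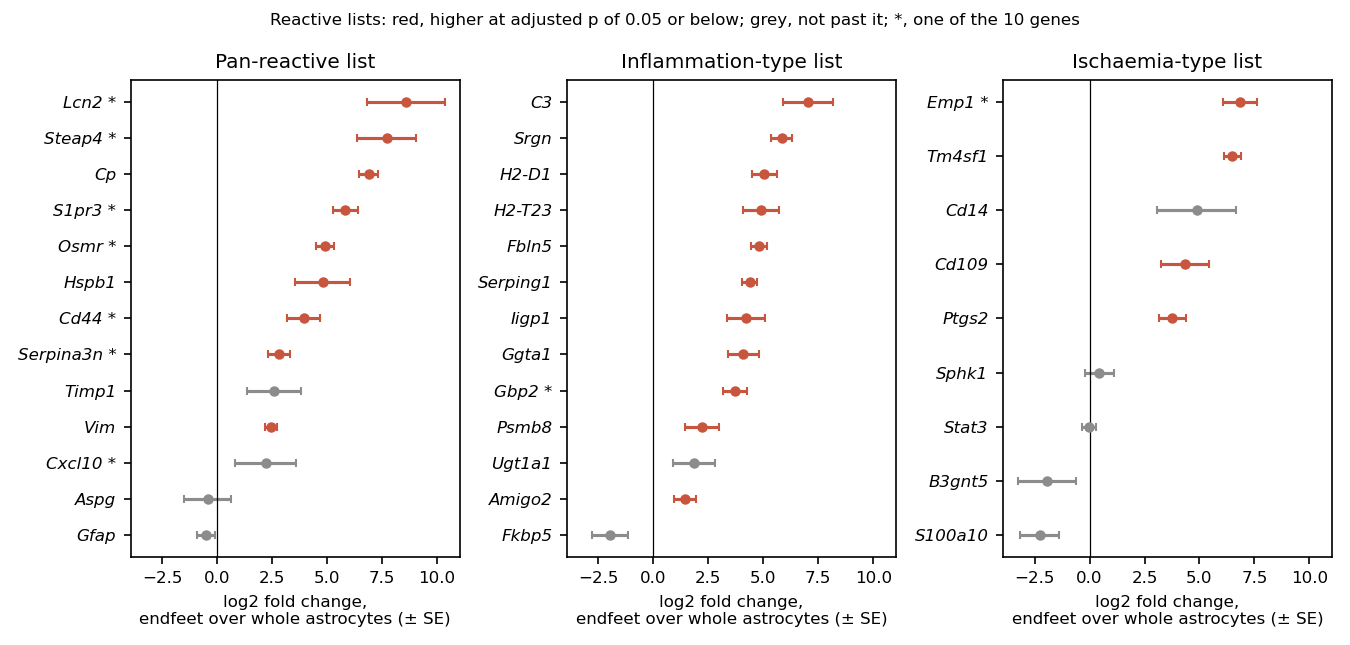
Log2 fold change of endfeet over whole astrocyte TRAP (horizontal axis, bars are ± SE) for the tested genes of the pan-reactive, inflammation-type and ischaemia-type lists, in red where the adjusted p was 0.05 or below and grey where it was not, with * on the 10 genes. Red points number 9, 11 and 4, all to the right of 0, and the grey ones include Gfap at −0.53 and Stat3 at −0.01.

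Relatives of the 10 genes with at least 1 CPM in a group were followed as well. Serpina3g, the other measurable member of its cluster, was at 0.18 ± 0.13 and 8.64 ± 6.95 normalised CPM (log2 fold change 5.57 ± 1.5, SE, adjusted p = 0.012), and missed the threshold without whole astrocyte library 1 or 2 (adjusted p = 0.061 and 0.054). All 7 guanylate-binding protein genes that were tested, Gbp2 included, were higher, against 20.7% of all genes tested. Gbp4 and Gbp9 exceeded Gbp2 in size of change, at 10.10 ± 0.92 and 7.28 ± 0.62, from 0.080 ± 0.095 and 0.53 ± 0.23 normalised CPM in whole astrocytes to 91.4 ± 29.1 and 83.1 ± 28.0 in endfeet. The Gbp4 value rests on 9 counts in whole astrocytes, and it was 11.46 without library 2 and 9.47 without library 3 of that group. Gbp3 changed by 3.44 ± 0.59 (adjusted p = 0.00063) and Gbp7 by 2.10 ± 0.52 (adjusted p = 0.0071). Gbp5 (3.0 ± 0.84, adjusted p = 0.015) and Gbp8 (6.16 ± 2.04, adjusted p = 0.032) passed less firmly. Without whole astrocyte library 1, 2 or 3 the adjusted p of Gbp5 was 0.064, 0.072 or 0.069 and that of Gbp8 was 0.11, 0.073 or 0.12. The change of Gbp8 was 5.07 without endfeet library 1.

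Of the metalloreductases related to Steap4, Steap2 rose by 3.13 ± 0.59 (SE, adjusted p = 0.0011), and by 1.98 within the series of endfeet libraries 4 to 6 and the whole astrocytes. Steap1 was high in endfeet libraries 1 to 3 (64.0, 70.8 and 17.8 normalised CPM) and low in 4 to 6 (2.58, 3.69 and 0.46), beside 0.86 ± 0.71 in whole astrocytes. Its log2 fold change of 4.94 ± 1.60 (adjusted p = 0.03) became 1.32 (adjusted p = 0.39) within the latter series. It also missed the threshold without whole astrocyte library 1, 2 or 3 (adjusted p = 0.094, 0.077 or 0.088) or endfeet library 2 (0.061). Steap3 was at 8.92 ± 0.91 and 27.8 ± 20.7 normalised CPM (1.64 ± 0.79, adjusted p = 0.12). Of the relatives of Emp1, Emp2 rose by 2.12 ± 0.32 (adjusted p = 0.00022) and Emp3 by 3.06 ± 0.69 (adjusted p = 0.004), while Pmp22 was at 143 ± 16 and 203 ± 63.8 normalised CPM (0.50, adjusted p = 0.23). Tgm2, the widely expressed tissue transglutaminase, went from 4.97, 3.71 and 4.78 normalised CPM to 343, 273, 385, 170, 220 and 172, where Tgm1 was nearly without counts. Its log2 fold change was 5.86 ± 0.43 (adjusted p = 7.0e-07), and 5.25 within the latter series. Tgm4 was at 4.74 ± 0.20 and 11 ± 7.14 normalised CPM (1.21, adjusted p = 0.31).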

How the data were processed

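The deposited values are raw counts of reads per Ensembl transcript, which the authors made with the Eoulsan pipeline: reads of 50 bp were demultiplexed with bcl2fastq 1.8.4 (per the submitters' processing notes), aligned to mm10 with Bowtie, stripped of reads with several alignments, and counted with HTSeq 0.5.3 on Ensembl 75. Whether strand was used is not stated.

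Of 75466 transcripts 73164 were matched to GENCODE M21 (98.3 to 98.6% of counts), and 2302 were left out. All 9 libraries entered 1 fit of 14427 genes in edgeR 4.0.16 (R 4.3.3), using TMM, filterByExpr and the quasi-likelihood test. p-values were adjusted after Benjamini and Hochberg, and 0.05 was the threshold. The SE of a change is its size over the square root of F. The edgeR, DESeq2 and limma voom fits were tested on simulated counts with the same dispersion in both groups, unlike in these data. Counting intervals are exact (Clopper-Pearson), and they and floors of 3 counts cover counting error only. Alternatives used DESeq2 1.42.0 and limma 3.58.1, and tables were made with Python 3.11.15, numpy 2.4.6 and pandas 2.3.3.

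The 10 genes and all lists were chosen with earlier results of these data known. A gene of the pathway lists is not reported here, nor does it enter their counts. Named besides them are Gfap, Vim, fixed partners, in each list and direction at most 3 genes with the largest change past the threshold, and relatives with a mean of at least 1 CPM in either group. Outside this rule, chosen after values were seen, are Ttr, S100a8, S100a9, Ly6g, Camp, Retnlg, Fkbp5, S100a10, Hspb1, Timp1, Aspg, Ptx3 and Art3.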

Additional observations from a re-analysis of the deposited data

Results flagged for a closer look

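Among the 55 genes named in the report that were counted by library, 6 had a highest endfeet library whose gap to the next was a larger part of the whole range than Dixon's 95% limit of 0.625 for 6 values. Chance flags about 1 in 20 groups of normally distributed values, which normalised CPM need not be, so the rate here is not known. None of the 10 reactive genes was among the 6. Stat3 was at 273 normalised CPM in endfeet library 1, where the next library had 156. Gbp8 was at 30.2 in endfeet library 1, with 8.29 in the next. Emp3 was at 47.8 in endfeet library 1, with 23.2 in the next. Socs3 was at 63.5 in endfeet library 6, with 17.8 in the next. Sphk1 was at 31.6 in endfeet library 5, with 12.5 in the next. Cxcr3 was at 3.33 in endfeet library 2, with 0.13 in the next.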

How the results depend on the processing

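The count of 8 members higher and 0 lower was unchanged with DESeq2's Wald test, DESeq2 size factors in edgeR, no filter on low counts, counts summed over transcripts, thinned libraries, limma voom with a weight per group, the library series as a covariate, the replicate block and each library left out, and with 2 choices added after seeing the data, Cd44, Osmr and Cxcl10 on transcripts with shorter 3′ ends and endfeet libraries 4 and 6 left out together. It was 7 within the series of endfeet libraries 4 to 6 and the whole astrocyte libraries, where Lcn2 could not be tested, and 6 with at least 10 counts in every library, where Lcn2 and Steap4 could not. Cxcl10 passed the threshold in none of its 18 alternatives (adjusted p of 0.12 to 0.99). Thinned libraries and the transcript with the shorter 3′ end left it with too few counts. Tgm1 was tested without the filter, with a log2 fold change of 3.42 (adjusted p = 0.24).

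Over all genes, limma voom called 4485 lower in place of 2006, and leaving out 1 library gave 1874 to 3380 higher and 1171 to 2642 lower, with 1959, 1874 and 1943 higher and 1171, 1197 and 1217 lower without whole astrocyte library 1, 2 and 3. The share of calls that were higher was 59.9% and became 46.7% with limma voom, where the median log2 fold change of all genes shifted by -0.39. In the pan-reactive list limma voom called 1 gene lower, Gfap. In the inflammation-type list 1 gene was lower, Fkbp5, with the series as a covariate, within 1 series, with the replicate block, with limma voom and without endfeet library 1 or 6 (0 to 1 over the libraries left out). In the ischaemia-type list 1 gene was lower with DESeq2, without the filter, with the series as a covariate and with counts summed over transcripts, 2 with limma voom, 3 within 1 series, and 0 to 1 with a library left out. The causes were not tested.

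Groups share replicate numbers 1 to 3, and same-numbered libraries deviated with correlations of -0.034, 0.0085 and 0.071. Endfeet libraries 2 and 3 correlated best with their own number, and endfeet library 1 did not. So few libraries cannot settle whether the numbers pair them. With the replicate block 2311 genes were higher and 1994 lower, 8 members stayed higher, 3 of the 43 named genes past the threshold were not (Socs3, Iigp1 and Gbp5), and the log2 fold change of Cxcl10 turned to -0.038 (adjusted p = 0.99). Depth limits Lcn2, Cxcl10 and Tgm1 most, since in endfeet library 6 the limit of 3 counts is 1.37 normalised CPM.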
